A study of Mus musculus with 6 samples.

Results

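The expression of 10 hepatic angiocrine and TGF-β family genes was measured in liver sinusoidal endothelial cell (LSEC) libraries from mice bearing colorectal cancer liver metastases (CRCLM). These genes, Wnt2, Wnt9b, Rspo3, Hgf, Bmp2, Bmp6, Tgfb1, Tgfbr1, Tgfbr2 and Acvrl1, were taken by symbol from a table of 60832 genes, and each symbol matched 1 row. RNA-seq was performed on 3 libraries from bevacizumab-sensitive and 3 libraries from bevacizumab-resistant xenografts of the human colorectal cancer line HCT116. The hosts of both groups were male BALB/c-Nu mice, an athymic strain that lacks mature T cells. Bevacizumab is an antibody against VEGF-A, and the resistant model had been made by prolonged exposure of the xenografts to it. LSECs were captured with anti-CD146 beads from the digested metastatic tissue, and the labels describe the cells of all 6 libraries as cultured for 24 h. The sources used here do not say whether the libraries came from separate mice, so every p-value below measures only the spread between these 6 libraries, which may be technical.

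Angiocrine factors are proteins that endothelial cells release to instruct their neighbours. In the liver, Wnt2 and Wnt9b from endothelial cells, together with the R-spondin Rspo3, maintain hepatocyte zonation and renewal through β-catenin, whereas Hgf stimulates hepatocyte growth through the receptor Met. Bmp2 and Bmp6 from LSECs induce hepcidin in hepatocytes and thereby set the iron balance. Tgfb1 is the main fibrogenic cytokine of the liver and signals through the type II receptor Tgfbr2 and the type I receptor Tgfbr1, while Acvrl1, also called ALK1, is the endothelial type I receptor for Bmp9 and Bmp10.

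The libraries held 17599326 to 20726684 counts assigned to genes, so that 3 counts, the limit a count of 0 allows, corresponded to 0.145 to 0.170 counts per 1000000 assigned counts (CPM). These limits cover counting error only. Sensitive replicate 2 stood apart: its correlation with the other 5 libraries was 0.86 to 0.901 on log2 CPM across genes, against 0.954 to 0.974 for the other 10 pairs. Markers of LSECs were present, but markers of macrophages and Kupffer cells were far more abundant. The sum of 18 macrophage and Kupffer cell markers was 29403 to 43508 CPM, and the sum of the 14 LSEC markers found in the table was 896 to 2304 CPM. Marco, a scavenger receptor of macrophages, averaged 3741 fragments per kilobase and per 1000000 (FPKM), compared with 108 FPKM for Cd36, 56.6 FPKM for Stab1 and 37.1 FPKM for Lyve1, the scavenger and hyaluronan receptors that led the LSEC list. The lowest of the LSEC list, Clec4g, Plvap and Gpr182, averaged 1.16, 1.11 and 0.761 FPKM. Mcam, which encodes the CD146 used for capture, had 6 to 79 counts. No marker in the LSEC, pan-endothelial or macrophage list was at 0 in all 6 libraries. The sums of 10 neutrophil markers were 5265, 6905 and 642 CPM in the sensitive and 2106, 1560 and 337 CPM in the resistant libraries, and those of 15 stellate cell and fibroblast markers lay between 410 and 973 CPM over both groups. The sums of 12 hepatocyte markers were 254 to 550 CPM, those of 10 epithelial and biliary markers 76.5 to 920 CPM and those of 10 lymphocyte markers 0.759 to 12.2 CPM. The part of each cell type in the values below, and in those of Cd36 and Stab1, was not tested.

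Per transcript length, the receptors and Tgfb1 were the most abundant of the 10 genes, and Rspo3 and Wnt9b the least. Tgfbr2 averaged 49.5 FPKM ± 14.8 (SD, n = 6 libraries) and Tgfb1 42.5 FPKM ± 2.35. Acvrl1 followed with a mean of 28.0 FPKM (16.6 to 41.5), Tgfbr1 with 16.2 FPKM (6.30 to 23.8) and Bmp6 with 9.06 FPKM (1.36 to 15.2). Bmp2 averaged 2.39 FPKM, Wnt2 1.27 FPKM, Hgf 1.08 FPKM, Rspo3 0.182 FPKM and Wnt9b 0.0113 FPKM. Neighbours in this order overlapped in their ranges from Tgfbr2 down to Hgf. Tgfbr2 was above Tgfb1 in 5 of 6 libraries and Wnt2 was above Hgf in 3 of 6, whereas the ranges of Hgf and Rspo3, and those of Rspo3 and Wnt9b, did not overlap. The order did not move with any 1 library left out.

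**Figure D1:**
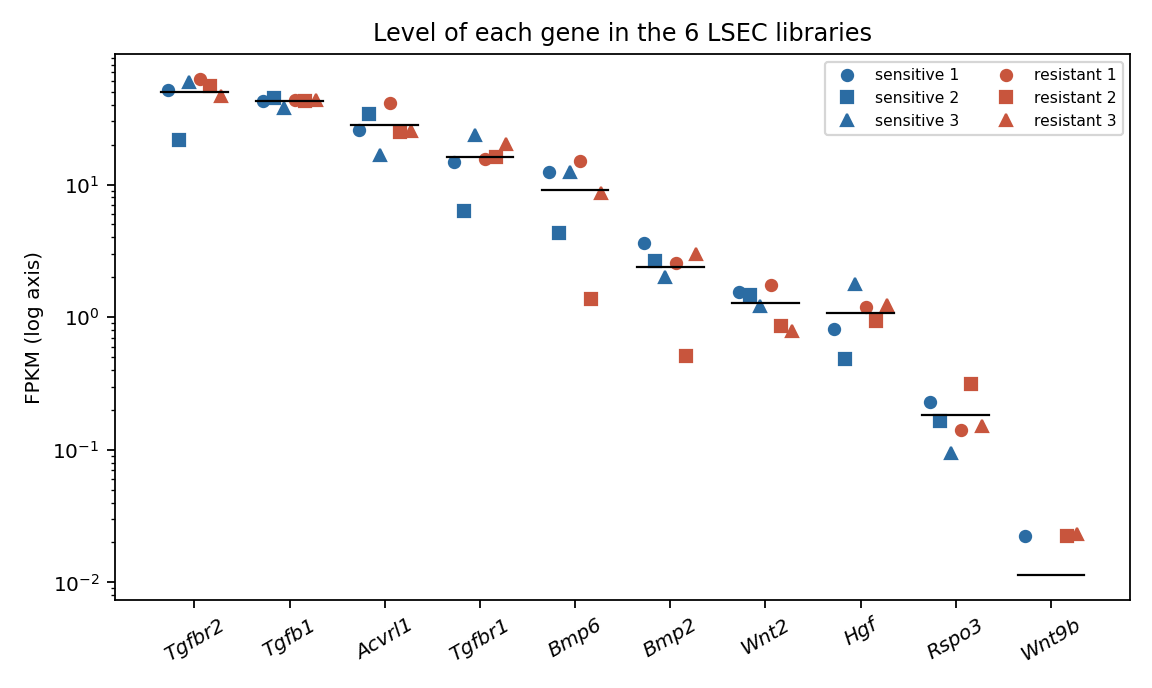
Level of each of the 10 genes in FPKM (log axis) in the 6 LSEC libraries, with the group in color, the replicate as the symbol and the mean of the 6 libraries as a bar. Means run from 49.5 FPKM for Tgfbr2 to 0.0113 FPKM for Wnt9b, whose 3 libraries at 0 counts have no point, and sensitive replicate 2 lies lowest for Tgfbr2 and Tgfbr1 but not for Acvrl1 or Tgfb1.

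Of the Wnt ligands, Wnt2 was measured at a low level and Wnt9b was below the limit that a count of 0 allows. Wnt2 was at 3.51, 3.30 and 2.72 CPM in the sensitive libraries and at 3.96, 1.92 and 1.77 CPM in the resistant libraries, on 34 to 82 counts. Resistant replicates 2 and 3 were below all sensitive libraries, but resistant replicate 1 was the highest of the 6, so the groups overlapped. Expressed as resistant over sensitive libraries, its log2 fold change was -0.40 ± 0.449 (SE, 95% interval -1.46 to 0.65, adjusted p = 0.940, edgeR's quasi-likelihood test), and it was -0.81 without resistant replicate 1 and -0.19 without resistant replicate 3. Wnt9b, the other central vein Wnt ligand, had 2, 0 and 0 counts in the sensitive and 0, 2 and 2 counts in the resistant libraries. Every library was thus under the limit of 3 counts, and a difference in Wnt9b was not detectable at this depth.

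Rspo3, which amplifies Wnt signals by protecting Frizzled receptors from degradation, was at 0.713, 0.511 and 0.292 CPM in the sensitive and at 0.434, 0.961 and 0.468 CPM in the resistant libraries. These values stood on 6 to 19 counts, and the sensitive range overlapped the resistant one. For Rspo3 the log2 fold change was 0.25 ± 0.695 (SE, 95% interval -1.38 to 1.88, adjusted p = 0.955, edgeR's quasi-likelihood test), and its sign turned without sensitive replicate 3 (-0.02) or without resistant replicate 2 (-0.23). In the GENCODE M21 annotation, 13.1% of the exonic bases of Rspo3 lie opposite the gene Gm48159, and the strand setting of the counting is not given in the sources used here, so reads of the pair may be shared.

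Hgf was at 5.81, 3.47 and 12.8 CPM in the sensitive and at 8.64, 6.78 and 8.95 CPM in the resistant libraries. The 3 resistant values fell inside the sensitive range, whose ends were sensitive replicates 2 and 3. The means were 7.36 ± 4.85 and 8.12 ± 1.17 CPM (SD, n = 3 each). For Hgf the log2 fold change was 0.09 ± 0.470 (SE, 95% interval -1.02 to 1.20, adjusted p = 0.976, edgeR's quasi-likelihood test), and it was -0.09 without sensitive replicate 1 and -0.21 without sensitive replicate 2. An exon of Gm43489 on the same strand covers 6.74% of the exonic bases of Hgf.

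The BMP ligands varied most between libraries. Bmp6 was at 48.7, 16.9 and 48.1 CPM in the sensitive and at 59.2, 5.31 and 33.7 CPM in the resistant libraries. The highest and the lowest value were both in the resistant group, 11.1-fold apart, and enclosed all sensitive values. The SD of Bmp6 on TMM-scaled log2 CPM was larger than that of 14011 of the 15474 genes tested. Its log2 fold change was -0.27 ± 0.749 (SE, 95% interval -2.04 to 1.5, adjusted p = 0.955, edgeR's quasi-likelihood test), and it turned to 0.24 without resistant replicate 2. Of the exonic bases of Bmp6, 5.74% lie opposite Txndc5.

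Bmp2 was at 12.8, 9.38 and 7.15 CPM in the sensitive and at 9.17, 1.82 and 10.7 CPM in the resistant libraries. Only resistant replicate 2 lay below the sensitive range, and the other 2 resistant libraries lay within it. For Bmp2 the log2 fold change was -0.51 ± 0.601 (SE, 95% interval -1.93 to 0.91, adjusted p = 0.940, edgeR's quasi-likelihood test), and it was -0.05 without resistant replicate 2 and -0.92 without resistant replicate 3. The library with the least Bmp2 was therefore also the one with the least Bmp6.

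Resistant replicate 2 was also the library with the lowest level of pan-endothelial markers, 17 of 18 of which were lowest there. The sum of 18 pan-endothelial markers was 487, 312 and 560 CPM in the sensitive and 466, 90.3 and 464 CPM in the resistant libraries. Cdh5, the VE-cadherin of endothelial junctions, had 3832, 739 and 4494 counts in the sensitive and 4473, 356 and 4489 counts in the resistant libraries. As a percentage of the pan-endothelial sum, Bmp6 was 9.99, 5.41 and 8.59 in the sensitive and 12.7, 5.88 and 7.26 in the resistant libraries. On that scale the highest Bmp6 value was 2.35 times the lowest, compared with 11.1 times in CPM. Bmp2 had the same narrowing, from 7.02 to 2.35 times, and its percentages of the pan-endothelial sum ranged from 1.28 to 3.01. The spread of the other 7 tested genes widened on this scale, for example from 1.18 to 6.91 times for Tgfb1 and from 2.88 to 8.73 times for Tgfbr2. The pan-endothelial sum itself spread 6.20 times, so a gene that varied little in CPM had to widen when divided by it. Beside the LSEC marker sum, which was 1493 CPM in resistant replicate 2, Bmp6 kept a spread of 12.0 times. That sum was carried by Cd36 and Stab1, which made up 72.5% of it in resistant replicate 2 and 45.3 to 73.9% over the 6 libraries, while 7 of the 14 LSEC markers (Stab2, Ehd3, Dnase1l3, Flt4, Clec4g, Plvap and Gpr182) were lowest in resistant replicate 2. These points share their libraries and their totals, and in bulk RNA fewer cells of a type and less RNA per cell cannot be told apart.

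**Figure D2:**
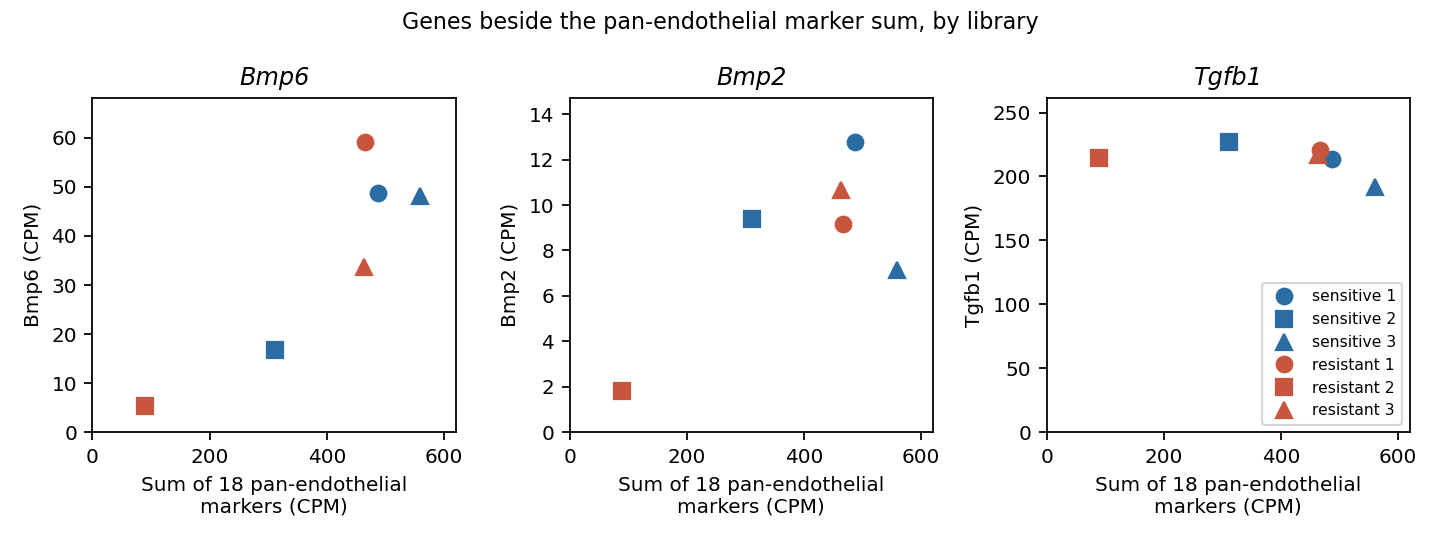
Bmp6, Bmp2 and Tgfb1 in CPM against the sum of 18 pan-endothelial markers in CPM, 1 point per library. Resistant replicate 2 holds the lowest marker sum (90.3 CPM) and the lowest Bmp6 (5.31 CPM) and Bmp2 (1.82 CPM), whereas Tgfb1 stays between 192 and 227 CPM in all 6 libraries.

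Tgfb1 was the steadiest of the 10 genes. It was at 214, 227 and 192 CPM in the sensitive and at 220, 214 and 217 CPM in the resistant libraries, on 3950 to 4569 counts. The resistant values fell inside the sensitive range, and the highest library was 1.18 times the lowest. The means were 211 ± 17.7 and 217 ± 3.08 CPM (SD, n = 3 each), and the coefficient of variation over the 6 libraries was 5.53%. On log2 CPM by library totals, the SD of Tgfb1 ranked within the lowest 0.575% of all genes tested, and after TMM scaling within the lowest 5.85%. The log2 fold change was -0.03 ± 0.199 (SE, 95% interval -0.50 to 0.43, adjusted p = 0.979, edgeR's quasi-likelihood test). Its sign turned with scaling by library totals alone (0.04), and the interval was the narrowest of the 9 genes tested.

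The promoter sequences of the steadiest gene and of the most abundant receptor are shown for orientation, since both genes were well covered while their spread between libraries differed. They are the 250 bases before the RefSeq start in GRCm38.p6. The Tgfb1 sequence is chr7:25686752-25687001 on the plus strand and the Tgfbr2 sequence is chr9:116175364-116175613 on the minus strand, each printed 5′ to 3′ with GC boxes (GGGCGG or its reverse complement CCGCCC) in capitals.
Tgfb1: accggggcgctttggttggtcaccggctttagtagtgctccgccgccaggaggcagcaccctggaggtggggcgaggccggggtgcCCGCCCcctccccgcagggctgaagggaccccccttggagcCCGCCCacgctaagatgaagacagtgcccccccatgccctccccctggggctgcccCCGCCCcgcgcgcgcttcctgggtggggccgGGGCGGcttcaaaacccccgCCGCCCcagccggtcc
Tgfbr2: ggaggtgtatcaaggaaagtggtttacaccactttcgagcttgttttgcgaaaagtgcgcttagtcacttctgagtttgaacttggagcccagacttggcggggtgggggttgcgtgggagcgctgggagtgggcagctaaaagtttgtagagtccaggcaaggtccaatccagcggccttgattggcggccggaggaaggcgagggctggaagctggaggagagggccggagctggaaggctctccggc
The Tgfb1 sequence had a GC content of 75.2% and held 5 GC boxes, which began 164, 123, 67, 36 and 16 bases before the start. The Tgfbr2 sequence had a GC content of 58.4% and held 0 GC boxes. Among 32851 windows of the same length, 32.7% held at least 1 GC box and 1.93% held at least 5. A match is a description of the letters and not of a bound site, and a link between GC boxes and the spread between libraries was not tested. RefSeq windows were at hand for 7 of the 10 genes.

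The receptors were lowest in 1 sensitive library, with Acvrl1 as the exception. Tgfbr2 was at 424, 178 and 488 CPM in the sensitive and at 512, 450 and 379 CPM in the resistant libraries. Tgfbr1 was at 97.4, 41.2 and 156 CPM in the sensitive and at 103, 105 and 133 CPM in the resistant libraries. For both receptors of Tgfb1, sensitive replicate 2 lay below all other libraries and sensitive replicate 3 was above at least 2 resistant libraries, so the groups overlapped. The log2 fold change of Tgfbr2 was 0.26 ± 0.339 (SE, 95% interval -0.54 to 1.06, adjusted p = 0.940, edgeR's quasi-likelihood test), and that of Tgfbr1 was 0.18 ± 0.415 (SE, 95% interval -0.80 to 1.16, adjusted p = 0.948). Without sensitive replicate 2 the values were -0.03 for Tgfbr2 and -0.16 for Tgfbr1.

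Acvrl1 was at 110, 145 and 70.8 CPM in the sensitive and at 177, 106 and 109 CPM in the resistant libraries. Sensitive replicate 2 was the second highest library for Acvrl1, and sensitive replicate 3 the lowest. The log2 fold change was 0.16 ± 0.351 (SE, 95% interval -0.67 to 0.99, adjusted p = 0.945, edgeR's quasi-likelihood test). It was 0.53 without sensitive replicate 2, -0.08 without sensitive replicate 3 and -0.07 without resistant replicate 1. The ratio of Acvrl1 to Tgfbr1 in FPKM ranged from 0.696 to 5.39, with the highest value in sensitive replicate 2, whereas the ratio of Tgfbr2 to Tgfbr1 stayed between 2.27 and 3.98. Both ranges are over all 6 libraries, and neither ratio separated the groups.

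As departures from the gene's median over the 6 libraries on log2 CPM, sensitive replicate 2 was at -1.30 for Tgfbr2, -1.33 for Tgfbr1, -1.25 for Bmp6 and -1.14 for Hgf, but at 0.08 for Tgfb1 and 0.41 for Acvrl1. Resistant replicate 2 was at -2.92 for Bmp6 and -2.35 for Bmp2, and at 0.97 for Rspo3. Sensitive replicate 2 was the lowest library for 3 of the 9 genes tested, sensitive replicate 3 for 3, resistant replicate 2 for 2 and resistant replicate 3 for 1. The LSEC marker sum was also lowest in sensitive replicate 2, at 896 CPM, although only 4 of its 14 genes (Stab1, Lyve1, Maf and Gata4) were lowest there. It was highest in resistant replicate 3 (2304 CPM), where Tgfbr2 was at its second lowest level. As percentages of that sum, the highest Hgf value was 1.85 times the lowest instead of 3.69 times, Tgfbr1 1.89 instead of 3.78 times and Tgfbr2 2.24 instead of 2.88 times. The spread of all other genes tested (Wnt2, Rspo3, Bmp2, Bmp6, Tgfb1 and Acvrl1) widened on this scale. It went from 1.18 to 2.69 times for Tgfb1 and from 2.24 to 4.79 times for Wnt2. The LSEC marker sum itself spread 2.57 times, so a gene that varied little in CPM had to widen when divided by it. Sensitive replicate 2 also had the highest neutrophil marker sum. Of 18 macrophage and Kupffer cell markers, 5 were lowest there. The sum of the 18 was 41775 CPM in that library and lowest in sensitive replicate 1 (29403 CPM). The part of any of these cell types in these values was not tested.

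**Figure D3:**
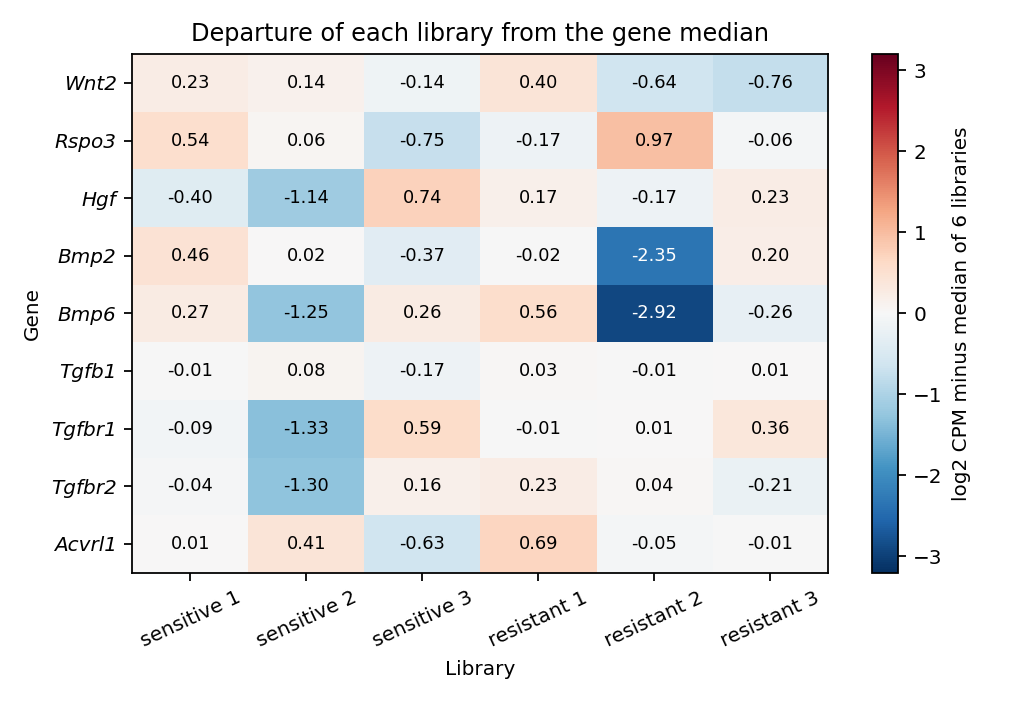
Departure of each library from the gene's median over the 6 libraries (log2 CPM, color and number in each cell) for the 9 genes tested, by library. The deepest cells are Bmp6 (-2.92) and Bmp2 (-2.35) in resistant replicate 2 and Tgfbr1 (-1.33) and Tgfbr2 (-1.30) in sensitive replicate 2, and the Tgfb1 row runs only from -0.17 to 0.08.

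Resistant and sensitive libraries were then compared over all members. Wnt9b did not pass the filter on low counts, and 0 of the other 9 genes passed an adjusted p of 0.05 in edgeR's quasi-likelihood test, against 0% of the 15474 genes tested in all. At an unadjusted p under 0.05, 0 of 9 passed as well, against 3.08% of all genes tested. DESeq2 and limma-voom also called 0 of the 9 genes. The CPM ranges of the groups overlapped for all 10 genes, and 8.39% of all genes tested had groups that did not overlap. With so few members, this does not set them apart from that share. The fold changes were higher in resistant libraries for 5 genes and lower for 4, with a median of 0.09 beside 0.01 over all genes tested. Of all genes tested, 50.8% were higher. Without sensitive replicate 2, 3 of the 9 were higher. An exact two-sided permutation test on CPM gave p values from 0.4 to 0.9 for the 10 genes, and 3 against 3 libraries cannot give a p below 0.1. The 95% intervals still held log2 differences of 1 in either direction for Rspo3, Hgf and Bmp6, so that 2-fold differences of these ligands were within the error. Those of Wnt2 and Bmp2 held a log2 difference of 1 only towards lower values, and those of Tgfbr1 and Tgfbr2 only towards higher values. The intervals of Acvrl1 (-0.67 to 0.99) and Tgfb1 (-0.50 to 0.43) held none. Wnt2 and Bmp2 were the only genes of the 9 whose sign was the same under every alternative and in every set of 5 libraries.

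**Figure D4:**
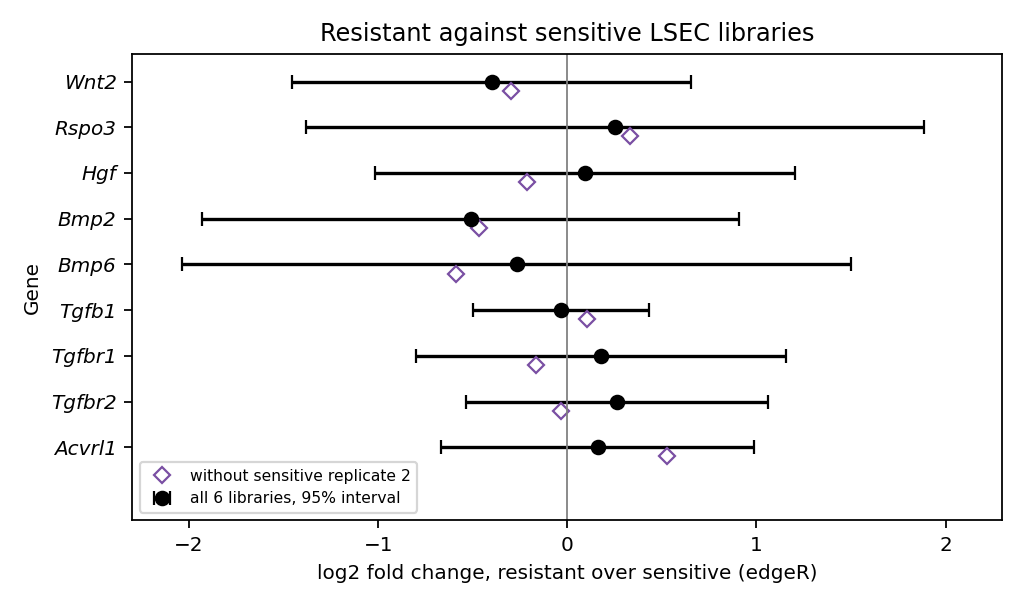
Log2 fold change of resistant over sensitive libraries for the 9 genes tested, with 95% intervals from edgeR over all 6 libraries (black) and the estimate without sensitive replicate 2 (open diamonds). Every interval includes 0, and Hgf, Tgfb1, Tgfbr1 and Tgfbr2 cross 0 when that library is left out.

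Genes whose level followed the 3 most abundant members most closely over the 6 libraries were picked by Pearson's r of TMM-scaled log2 CPM. They were drawn from 9642 genes with an average log2 CPM of at least 3. For Tgfbr2 these were Ifitm2 (r = 0.998), an interferon-induced membrane protein, and Aph1a (r = 0.997), a γ-secretase subunit. For Tgfb1 they were Gfus (r = 0.999) and Mbd3 (r = 0.997), a subunit of the NuRD chromatin complex. For Acvrl1 they were Nr2f6 (r = 0.983), an orphan nuclear receptor, and Adsl (r = 0.981), an enzyme of purine synthesis. An r over 0.95 was reached by 479 genes for Tgfbr2 and by 383 for Tgfb1, but by 16 for Acvrl1. The points are 6 libraries that share their depth and composition, so these values only describe them. For Tgfb1 the SD of log2 CPM was 0.148 after TMM scaling and 0.0822 by library totals. The part of the scaling in its r values was not tested.

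The other components of the same pathways were followed in 9 lists of 167 genes, all found in the table. The filter on low counts was passed by 119, and 28 of the 167 had at most 3 counts in every library. Of the 119, 0 passed an adjusted p of 0.05 in edgeR's quasi-likelihood test, whereas DESeq2 called 1, Inhbb. At an unadjusted p under 0.05, 1 was higher in resistant libraries, against 0.536% of all genes tested, and 4 were lower, against 2.54%. Together these were 4.20% of the 119, beside 3.08% in all. Non-overlapping groups were found for 10 genes (8.40%), close to the 8.39% of all genes tested. The fold change was above 0 for 89 of 119 genes (74.8%, beside 50.8% of all genes tested) with a median log2 value of 0.24. This rested in part on sensitive replicate 2. Without that library 69 of 119 (58.0%, beside 49.4% in all) were above 0 with a median of 0.06.

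Of 17 further Wnt ligands, 6 were tested and 7 had at most 3 counts in every library. Their fold changes were above 0 for 4 and below 0 for 2, with a median of 0.16, which turned to -0.12 without sensitive replicate 3. Wnt9a, on 0 to 18 counts, had groups that did not overlap and a log2 fold change of 1.61 ± 1.00 (SE), which was 2.69 without sensitive replicate 1 and 1.07 without sensitive replicate 2. Among 25 genes of Wnt secretion, Wnt receptors and the R-spondin pathway, 19 were tested, 15 of them above 0 (median 0.33), and 10 without sensitive replicate 2 (median 0.02). The most abundant were the co-receptor Lrp5 at 13.8 FPKM, the Wnt cargo receptor Wls at 8.18 FPKM and the receptor Fzd7 at 7.66 FPKM. Of 22 Wnt inhibitors and β-catenin pathway genes, 10 were tested, with 9 above 0 (median 0.30) but 5 without sensitive replicate 2 (median 0.03), and Dkk1, Dkk2, Sfrp2, Sfrp4, Wif1, Notum, Lef1 and Sp5 each had at most 3 counts in every library. Ctnnb1, which encodes β-catenin, averaged 187 FPKM with a log2 fold change of 0.26, which turned to -0.16 without sensitive replicate 2.

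All 12 other genes of the HGF pathway were tested, and 10 were above 0 (median 0.34). With 1 library left out, 8 to 11 were above 0 and the median was 0.18 to 0.64. The receptor Met was measured at 4.29 FPKM and the HGF-activating protease Plau at 22.0 FPKM. Plg, the precursor of plasmin, was at 1.32, 0.909 and 0.632 CPM in the sensitive and at 2.08, 8.09 and 1.30 CPM in the resistant libraries. The groups overlapped, and the log2 fold change of Plg was 1.96 ± 0.789 (SE, adjusted p = 0.940, edgeR's quasi-likelihood test) but 0.74 without resistant replicate 2. Plg is made chiefly by hepatocytes, and the sum of hepatocyte markers was highest in resistant replicate 2 (550 CPM). Its part in the Plg value was not tested.

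Of 19 further BMP and activin ligands, 8 were tested, with 6 above 0 (median 0.39). Without resistant replicate 2, 3 of 9 were above 0 and the median turned to -0.16. Inhbb, the βB subunit of activin B and inhibin B, was at 27.9, 55.6 and 35.7 CPM in the sensitive and at 12.4, 1.32 and 4.11 CPM in the resistant libraries. All resistant libraries were below all sensitive libraries. For Inhbb the log2 fold change was -2.88 ± 0.761 (SE, adjusted p = 0.940, edgeR's quasi-likelihood test), and it stayed between -3.94 and -2.40 with any 1 library left out. DESeq2 gave an adjusted p of 0.0336 for Inhbb, whereas the other alternatives gave adjusted p values of 0.619 to 0.9999, so its call rested on the tool. Gdf15, a stress-induced member of the TGF-β superfamily, averaged 50.7 FPKM.

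All 9 tested receptors of BMPs and activins, of 12 listed, had fold changes above 0 (median 0.35), but only 4 of 9 without sensitive replicate 2. Eng, the endothelial co-receptor that acts with Acvrl1, averaged 13.5 FPKM with a log2 fold change of 0.02, and Acvr1b averaged 8.84 FPKM. Rgmb, a BMP co-receptor, had groups that did not overlap and a log2 fold change of 0.42. Among 22 BMP antagonists, SMADs and targets, 18 were tested (12 above 0, 6 below 0, median 0.26, which ranged from 0.13 to 0.54 with 1 library left out). The target genes Id2, Id3 and Id1 averaged 75.9, 45.8 and 17.9 FPKM. Id4 was at 2.29, 4.32 and 2.48 CPM in the sensitive and at 1.69, 0.304 and 0.936 CPM in the resistant libraries, with no overlap and a log2 fold change of -1.75 ± 0.688 (SE, adjusted p = 0.940, edgeR's quasi-likelihood test).

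Of 20 genes for TGF-β ligands, their activation and further receptors, 19 were tested (11 above 0, 8 below 0, median 0.11). The median turned to -0.05 without sensitive replicate 2, -0.12 without sensitive replicate 3 and -0.23 without resistant replicate 2. Thbs1, which encodes the latent TGF-β activator thrombospondin-1, averaged 240 FPKM, and the integrin subunits Itgb1 and Itgb5 averaged 114 and 71.1 FPKM. Mmp14, a membrane-bound metalloproteinase that can release latent TGF-β, was at 64.5, 141 and 150.0 CPM in the sensitive and at 53.8, 51.6 and 46.1 CPM in the resistant libraries. The groups of Mmp14 did not overlap, and the log2 fold change was -1.33 ± 0.369 (SE, adjusted p = 0.940, edgeR's quasi-likelihood test).

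All 18 TGF-β SMADs and targets were tested (13 above 0, 5 below 0, median 0.14), but without sensitive replicate 2, 8 were above 0 and 10 below 0 (median -0.01). Tgfbi, an extracellular matrix protein induced by TGF-β, was at 397, 382 and 373 CPM in the sensitive and at 273, 148 and 184 CPM in the resistant libraries. All resistant values were below all sensitive values, with a log2 fold change of -1.01 ± 0.252 (SE, adjusted p = 0.940, edgeR's quasi-likelihood test) that stayed between -1.24 and -0.84 with any 1 library left out. Ccn2, a connective tissue growth factor, averaged 32.9 FPKM with a log2 fold change of -0.49, which ranged from -0.91 without sensitive replicate 3 to -0.16 without sensitive replicate 1.

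**Figure D5:**
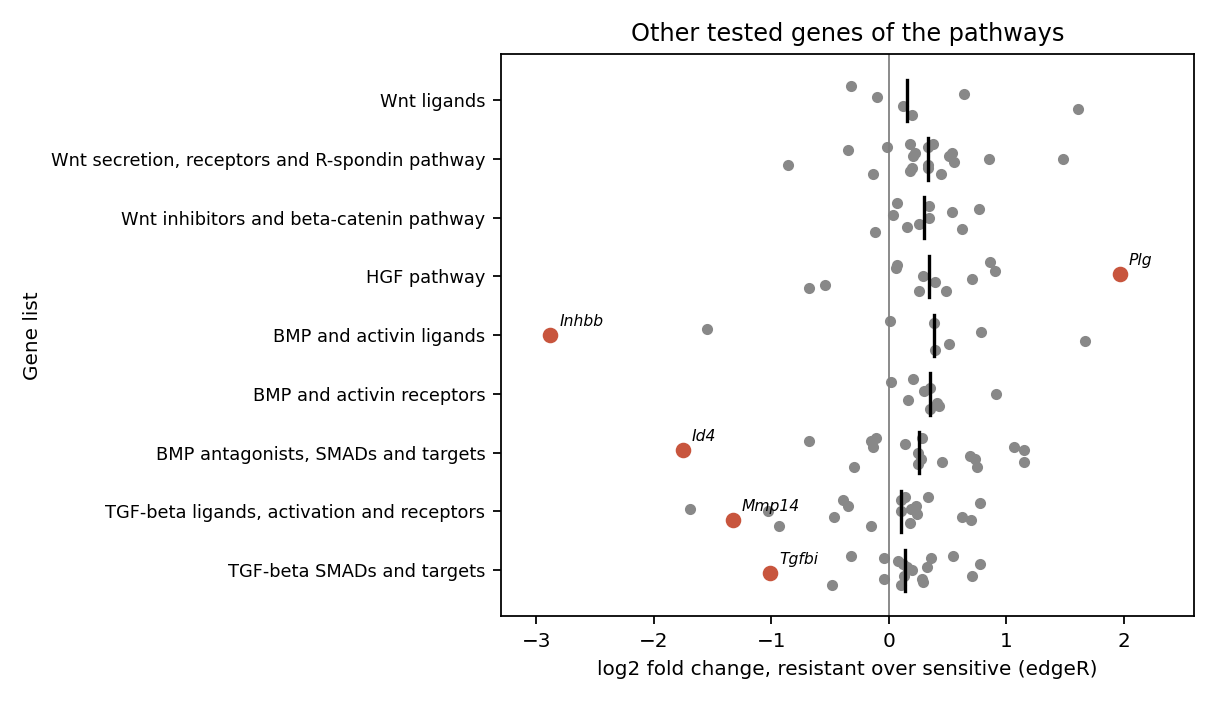
Log2 fold change of resistant over sensitive libraries (edgeR) for the 119 tested genes of the 9 pathway lists, 1 point per gene, with the median of each list as a bar. Red points are the 5 genes with an unadjusted p under 0.05: Plg is at 1.96, and Inhbb, Id4, Mmp14 and Tgfbi lie between -2.88 and -1.01.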

How the data were processed

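The 6 mouse RNA-seq libraries of LSECs were analysed, 3 per group, assigned by the sample titles. The series' design text describes another cell type, and its groups were not used. The authors deposited 1 table of read counts and FPKM values per gene, made from NEBNext Ultra II libraries for which both poly(A) selection and rRNA depletion are stated. The FPKM values equal CPM divided by 1 length per gene. The submitters' processing notes name HISAT2 2.0.5, featureCounts 1.5.0-p3, DESeq2 1.16.1, edgeR and the build mm9. The annotation and the strand setting are not given in the sources used here. Since 52083 of the 60832 gene IDs are in GENCODE M21, a GRCm38 annotation, only exon overlaps and RefSeq promoter sequences of GRCm38.p6 carry coordinates. A second deposited table holds the authors' own group means, log2 fold changes and p-values and was not used.

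The members and the lists were chosen with earlier results of these data known. Named beside the members were, per pathway list, up to 3 genes with the highest mean FPKM and up to 2 with the smallest p, per marker list up to 3 by FPKM, and 2 genes per abundant member by likeness; Mcam and the genes listed at or below 3 counts were named for a count or a role after their values were seen, and 1 gene that the rule named is not reported here.

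The deposited counts were tested in R 4.3.3 with edgeR 4.0.16 (filterByExpr, TMM scaling, quasi-likelihood F test, Benjamini-Hochberg adjustment over 15474 genes, threshold 0.05). CPM values are counts over the library total, 17599326 to 20726684. Alternatives were other scalings, DESeq2 1.42.0, limma 3.58.1 (voom, and log2(FPKM + 1)), other filters, a replicate block and leaving out each library. The common biological coefficient of variation was 42.2%, so small differences had wide intervals.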

Additional observations from a re-analysis of the deposited data

How the results depend on the processing

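The number of members past the adjusted threshold was 0 under all 8 other settings and with any 1 library left out (0 to 0), and the order of the levels did not move with 1 library left out (0 to 0). Over all genes edgeR called 0 (476 at an unadjusted p under 0.05), DESeq2 called 24 (732 unadjusted) and edgeR with no filter on low counts 2. Over the pathway genes DESeq2 gave 1 (Inhbb, log2 fold change -2.91). With edgeR, leaving out any 1 library gave 0 to 0 over all genes and over the pathway genes. DESeq2 was not run with a library left out. Deviations from the group means correlated at -0.001 to 0.194 between libraries of the same replicate number. These few values cannot settle whether the replicate numbers pair the libraries. The replicate block called 0 genes in all, 0 members and 0 pathway genes. Requiring 10 counts in every library left out Rspo3.

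Some signs turned without a change of call, and the cause was not tested. Tgfb1 was 0.039 with library totals alone, 0.052 without a filter and 0.044 on log2(FPKM + 1). Eng was -0.092 with limma-voom, -0.0087 on log2(FPKM + 1) and -0.082 with the replicate block. Id1 was 0.071, 0.081 and 0.031 in the same fits, and Wnt6 was 0.073 with limma-voom. With 1 library left out, the members' values ranged from -0.10 to 0.10 (Tgfb1), -0.23 to 0.50 (Rspo3), -0.21 to 0.76 (Hgf), -0.96 to 0.24 (Bmp6), -0.16 to 0.69 (Tgfbr1), -0.034 to 0.54 (Tgfbr2) and -0.077 to 0.53 (Acvrl1). Those of pathway genes ranged from -0.078 to 0.42 (Acvr1b), -0.048 to 0.12 (Axin1), -0.16 to 0.78 (Ctnnb1), -0.41 to 0.36 (Eng), -0.13 to 1.16 (Gdf15), -0.0041 to 0.29 (Gsk3b), -0.49 to 0.36 (Id1), -0.14 to 0.58 (Id2), -0.31 to 0.53 (Id3), -0.022 to 0.36 (Lrp5), -0.37 to 0.77 (Thbs1), -0.11 to 0.52 (Wls) and -0.75 to 0.46 (Wnt6). Of 125 values of the members, 112 kept their direction and 13 did not.

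Wnt9b had at most 2 counts in a library and Rspo3 at most 19, and how counting error and the spread between libraries divide the error was not tested.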
